A study of Rattus norvegicus with 8 samples.

Results

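The synucleins are small, soluble proteins that bind acidic lipid membranes and are best known from nerve terminals, where they lie close to synaptic vesicles. β-Synuclein (Sncb) is a protein mainly of brain neurons, and γ-synuclein (Sncg) is prominent in peripheral sensory, motor and sympathetic neurons and, outside the nervous system, in white adipocytes. The heart holds autonomic nerve fibres, epicardial fat and, in the atria, muscle cells that store hormones in granules, so the level of both transcripts was compared between atrium and ventricle. The genes were chosen by symbol, with the atrial and ventricular values of these same arrays already known, so their levels and differences are given as a description with no test. They were read by 3 of the 31042 probe sets, 2 for Sncb (1369924_at and 1371568_at) and 1 for Sncg (1398245_at). A probe set is a group of short oligonucleotides summarized as 1 value. Of the Sncb probe sets, 1369924_at is annotated to a RefSeq transcript and 1371568_at to an expressed sequence tag, and 1398245_at of Sncg is annotated to a RefSeq transcript.

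The tissues compared were the appendage of the left atrium and the free wall of the left ventricle, from 13 untreated normal male Sprague-Dawley rats of 225 to 275 g, with the side given by the methods and the age not given in the sources used here. Each tissue was combined into 4 pools and each pool was read on 1 array, so n counts pools, every pool mixes several rats, and the SD is that between pools. Which rats went into which pool is not given in the sources used here. Signal is given as log2 intensity after Robust Multiple-Array Averaging (RMA), on which 1 unit is a doubling, and every array had a median of 4.8 or 4.81. Atrial markers were high in all atrial pools and ventricular markers in all ventricular pools. Atrial pools 1 and 4 also had more of the ventricular light chain Myl2 (10.48 and 11.3) than atrial pools 2 and 3 (4.32 and 6.82), against 13.23 to 13.3 in the ventricles, so values without pools 1 and 4 are given as well. In whole tissue, fewer cells of a type and less RNA per cell cannot be told apart.

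γ-Synuclein was higher in every atrial pool than in every ventricular pool. Sncg read 5.42, 5.54, 5.88 and 5.85 in atrial pools 1 to 4, against 5.27, 5.22, 4.97 and 4.82 in ventricular pools 1 to 4. The chambers did not overlap, but the lowest atrial pool lay only 0.14 above the highest ventricular pool, less than the SD within either chamber. Sncg averaged 5.67 ± 0.23 in atrial pools and 5.07 ± 0.21 in ventricular pools (SD, n = 4 pools each). The atrial mean was thus higher by 0.60 ± 0.16 (standard error from the spread between pools), or 1.52 fold. Over the 16 pairs of an atrial with a ventricular pool, the atrial value was higher in 16, by 0.14 to 1.06. Of all probe sets on the arrays, 17.7% had every atrial array above every ventricular array, and 37% had arrays that did not overlap in either direction, so a separation like that of Sncg was common between these chambers.

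The size of the Sncg difference was moderate for these arrays. A more positive difference was found for 6.02% of all probe sets, and a larger one in either direction for 10.3%. It lay under a fold of 1.8, the size criterion applied to these data in the methods. Leaving out 1 pool at a time gave differences between 0.52, without ventricular pool 4, and 0.69, without atrial pool 1. Without atrial pools 1 and 4 the difference was 0.64, so it was no smaller when the pools with more Myl2 were omitted.

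Sncg also varied within each chamber. The atrial pools spanned 0.46, with pools 3 and 4 close together at the top and pools 1 and 2 below them, and the ventricular pools spanned 0.46, with pools 1 and 2 above pools 3 and 4. The medians of the SD over all probe sets were 0.117 in the atria and 0.0986 in the ventricles, so the Sncg pools (0.23 and 0.21) spread more widely than the typical probe set.

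**Figure D1:**
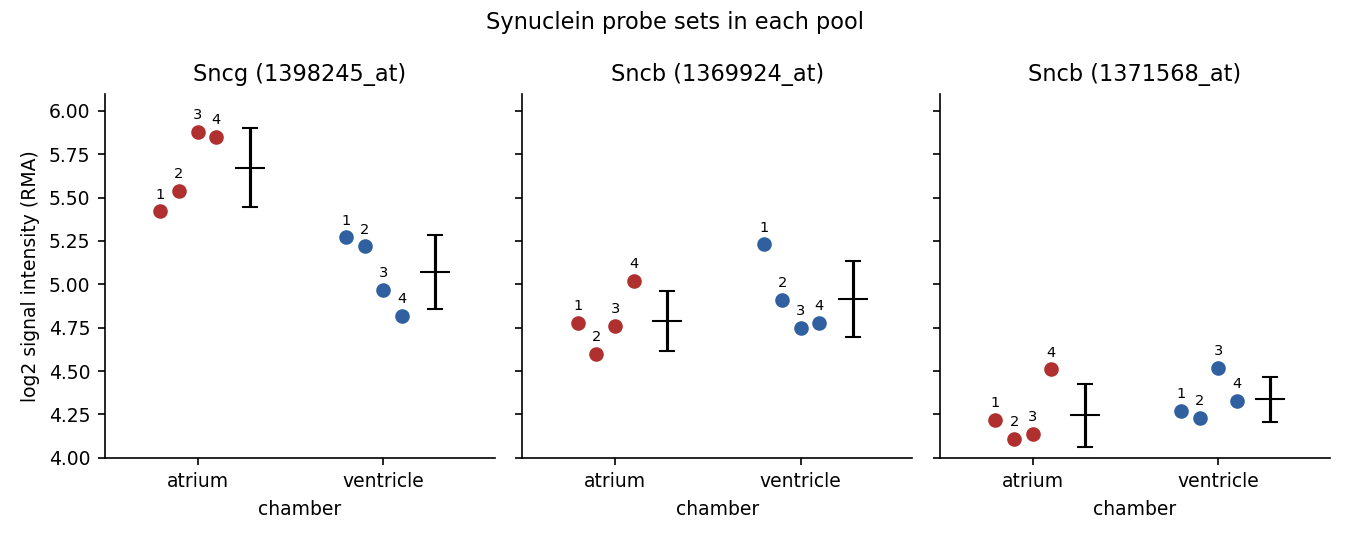
Log2 signal intensity (vertical axis, from 4) of the Sncg probe set and both Sncb probe sets in each pool, with atrial pools in red and ventricular pools in blue, each marked by its pool number, and bars for the mean ± SD of 4 pools. The atrial Sncg points, from 5.42 to 5.88, all lie above the ventricular points, from 4.82 to 5.27, while the chambers overlap in both Sncb panels.

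β-Synuclein showed no such separation. The brighter Sncb probe set, 1369924_at, read 4.78, 4.6, 4.76 and 5.02 in atrial pools 1 to 4, against 5.23, 4.91, 4.75 and 4.78 in ventricular pools 1 to 4. The highest pool was ventricular and the lowest atrial, and most of the values of the chambers were interleaved. This probe set averaged 4.79 ± 0.17 in atrial pools and 4.92 ± 0.22 in ventricular pools (SD, n = 4 each), which differ by -0.12 ± 0.14 (standard error). The atrial value was the higher in 6 of the 16 pairs of pools. Ventricular pool 1 carried most of the difference, which was -0.02 without it.

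The other Sncb probe set, 1371568_at, gave 4.22, 4.11, 4.14 and 4.51 in atrial pools 1 to 4, against 4.27, 4.23, 4.52 and 4.33 in ventricular pools 1 to 4. Atrial pool 4 and ventricular pool 3 stood at the top, almost level, and the remaining pools lay lower, so the chambers overlapped here too. Its means were 4.25 ± 0.18 in atrial pools and 4.34 ± 0.13 in ventricular pools (SD, n = 4 each), which differ by -0.09 ± 0.11 (standard error). Both Sncb probe sets therefore had differences smaller than their standard errors, which does not show that the levels were equal. Both had atrial pool 4 as the highest and atrial pool 2 as the lowest atrial value, but they ordered the ventricular pools differently, with pool 1 highest in 1369924_at and pool 3 highest in 1371568_at. Among all probe sets, 62.7% had a larger difference in either direction than 1369924_at and 71.7% a larger one than 1371568_at. Without atrial pools 1 and 4 the Sncb differences were -0.23 and -0.21, still with the atria below the ventricles.

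Both Sncb probe sets and the Sncg probe set lay near the middle of the array's intensities. Their means over the 8 arrays were above 50.6%, 42.7% and 57.4% of all probe set means, for 1369924_at, 1371568_at and Sncg in that order. The level of 1 probe set cannot be set against that of another, so these values do not rank the synucleins by abundance. Values under 4 on the log2 scale are called dim here, and every pool was above 4 at the 3 probe sets, 1371568_at by the least, at 4.11 in atrial pool 2. Detection above background was not assessed, so a value above 4 does not show that the transcript was present.

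**Figure D2:**
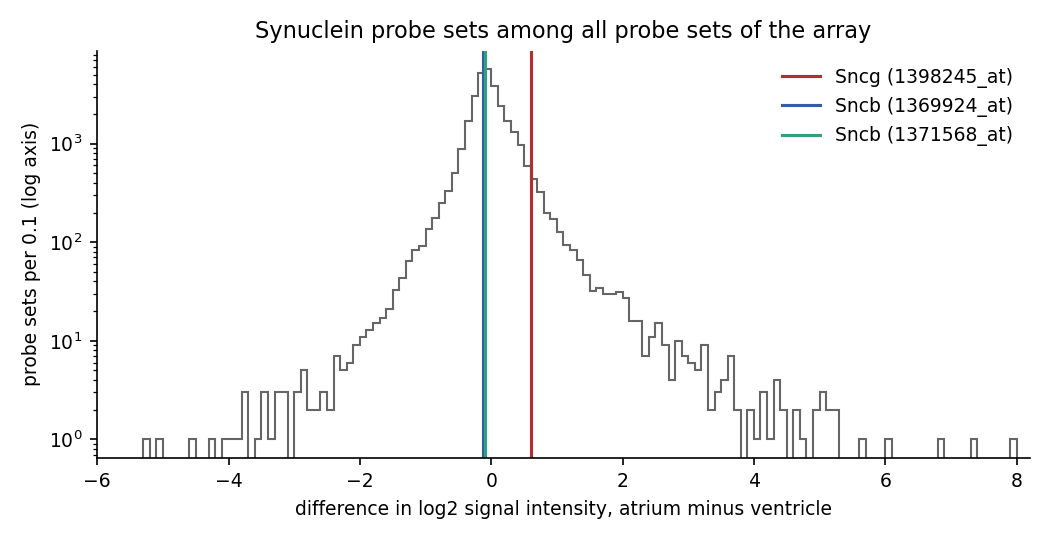
Number of probe sets (vertical axis, logarithmic) by the difference in log2 signal intensity between atrium and ventricle (horizontal axis, atrium minus ventricle) for all 31042 probe sets, with vertical lines at the synuclein probe sets. Sncg lies on the right shoulder at 0.60, while both Sncb probe sets, at -0.12 and -0.09, lie at the peak.

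Genes whose pattern over the 8 arrays was most like that of Sncg were found by Pearson's r with each of 14214 other genes, taken at their probe set with the highest mean. The 5 most alike were the GTPase-activating protein Arhgap18 (r = 0.97), Ppp1r3f, a subunit that directs protein phosphatase 1 to glycogen (0.97), the cadherin-related Cdhr1 of photoreceptors (0.97), the ubiquitin ligase Pdzrn3 (0.97) and the transcription factor Gtf2ird1 (0.95). In all 5 the atrial mean was above the ventricular mean, since an r over both chambers carries the chamber difference. Cdhr1 came nearest to Sncg in size, at 3.44, 3.4, 3.94 and 3.88 in atrial pools 1 to 4 and 3, 3.05, 2.87 and 2.81 in ventricular pools 1 to 4. It shared with Sncg the step between atrial pools 2 and 3, but was dim in every pool. In all, 60 genes had an r of at least 0.9 with Sncg, and 14 with Sncb.

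The likeness was also computed on the deviations from the chamber means, which leaves out the chamber difference. The genes closest to Sncg were then Pitpnm2, a phosphatidylinositol transfer protein (r = 0.97), the adaptor Shc2 (0.97), tyrosinase (Tyr, 0.96), the ligand Wnt10a (0.96) and Pde6h, a cone phosphodiesterase subunit (0.95). Pitpnm2 read 6.51, 6.56, 6.67 and 6.65 in atrial pools 1 to 4 and 7.55, 7.49, 7.45 and 7.4 in ventricular pools 1 to 4, so it followed the pools of Sncg within each chamber and ran against it between chambers. The other 4 were dim in both chambers, with means under 4. None of the 10 genes is on the cell type lists described below.

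For Sncb, read at 1369924_at, the closest over the 8 arrays were Emc8, a subunit of the ER membrane protein complex (r = 0.92), LOC102551009 (0.92), the proteoglycan aggrecan (Acan, 0.92), the transporter Slc12a8 (0.92) and the acyl-CoA synthetase Acsbg1 (0.91). Slc12a8 was also among the 5 closest to Sncb in the deviations from the chamber means (0.96), with the phosphatase Dusp26 (0.98), Cnnm3 (0.97), the lipid phosphatase Mtmr1 (0.96) and alkaline phosphatase (Alpl, 0.95). Slc12a8 read 4.82, 4.63, 4.77 and 4.96 in atrial pools 1 to 4 and 5.57, 5.05, 4.95 and 4.94 in ventricular pools 1 to 4, and had its highest value in ventricular pool 1, as Sncb had. These r values are descriptions over 8 arrays, picked as the highest of many genes.

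Because Sncg is known from adipocytes and peripheral neurons, marker lists of cell types were set beside it. Each listed gene was tested with limma, a linear model fitted to all probe sets, and called at a Benjamini-Hochberg adjusted p under 0.05 over all of them. Over all 14217 genes, at 1 probe set each, 22.5% were called higher in the atria and 22.5% lower, with a median difference of -0.04. Of 22 measured adipocyte markers, 11 were called higher in the atria and 3 lower, with a median difference of 1.40. Those higher by the most were Thrsp, a regulator of lipogenesis (difference 5.29, limma adjusted p = 0.0013), carbonic anhydrase Car3 (5.12, limma adjusted p = 5.9e-08) and uncoupling protein 1 (Ucp1) of brown fat (5.02, limma adjusted p = 0.014). The call of Ucp1 was lost when limma's variance moderation was trended and robust. The 3 called lower were Aqp7 (-3.28, limma adjusted p = 2.2e-04), Slc2a4 (-0.57, limma adjusted p = 1.5e-05) and Lpl (-0.40, limma adjusted p = 3.6e-04). All 3 were bright in the ventricles, with means of 9.39, 10.12 and 11.96 in that order. Which cells their RNA came from was not tested.

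The median adipocyte marker, like Sncg, was higher in every atrial pool than in every ventricular pool. As a deviation from the mean of the 8 arrays it was -0.48, 0.86, 0.50 and 1.90 in atrial pools 1 to 4, against -0.87, -0.63, -0.72 and -0.59 in ventricular pools 1 to 4. It was highest in atrial pool 4, where Sncg was level with pool 3 (5.85 and 5.88), and both were lowest of the atria in pool 1. From atrial pool 2 to pool 3 the median marker fell, from 0.86 to 0.50, while Sncg rose, from 5.54 to 5.88.

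Single adipocyte markers differed in atrial pool 1. Of the 22, 10 were above every ventricular pool there, 2 within the ventricular range and 10 below every ventricular pool, while 14 to 19 were above every ventricular pool in atrial pools 2 to 4. The share of all probe sets outside the ventricular range in a single atrial pool was not taken, so these counts are a description. Adiponectin (Adipoq), a hormone of fat cells, read 5.76, 7.04, 6.51 and 8.09 in atrial pools 1 to 4, against 3.5, 3.55, 3.99 and 3.43 in ventricular pools 1 to 4, and so separated the chambers in every pool. Ucp1 read 3.06, 9.4, 8.59 and 11.52 in atrial pools 1 to 4, against 3.12, 3.1, 3.31 and 2.97 in the ventricular pools, and was at the ventricular level in atrial pool 1. The summed linear intensity of the list was 7713, 12790, 10320 and 23840 in atrial pools 1 to 4 and 9407 to 9900 in the ventricles, but 58.1% of it over the arrays came from the 3 brightest genes, Lpl, Fabp4 and Cidea. Whether adipocytes contributed to the Sncg difference was not tested.

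Of 28 measured markers of nerve fibres and neurons, 2 were called higher in the atria and 6 lower, against 22.5% of all genes in each direction, with a median difference of -0.08, and 21 had both chamber means under 4. Their summed intensity was 745.6 to 854.2 in the atria and 901.1 to 1010 in the ventricles, but 64.3% of it came from Rtn1, Ddc and Npy, and the sum of the others overlapped, at 289.4 to 354.6 in the atria and 305.7 to 325.4 in the ventricles. This split changed with the processing, and renewed quantile or cyclic loess normalization gave 4 higher and 3 lower. It also changed with the replicate block, with a filter on dim probe sets and with pools left out. Those higher were the ubiquitin hydrolase Uchl1 (3.55 ± 0.12 in the atria and 3.1 ± 0.07 in the ventricles, limma adjusted p = 7.7e-04) and peripherin (Prph), an intermediate filament of peripheral neurons (5.29 ± 0.16 in atrial and 4.98 ± 0.12 in ventricular pools, limma adjusted p = 0.021; SD, n = 4 pools per chamber). The call of Prph was lost without atrial pool 2, ventricular pool 3 or ventricular pool 4, and with the replicate number as a block. Tyrosine hydroxylase (Th), an enzyme of sympathetic fibres, was dim, at 3.81 ± 0.08 in atrial pools and 3.75 ± 0.11 in ventricular pools (SD, n = 4 each), and did not pass the test (limma adjusted p = 0.55). The arrays read RNA in the tissue, so these markers do not measure the amount of nerve fibres. The largest lower values were those of Rtn1 (-0.51), the noradrenaline transporter Slc6a2 (-0.44) and Ddc (-0.39). Slc6a2 and Uchl1 were dim too, with both chamber means under 4.

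Of 15 measured Schwann cell markers, 4 were called higher in the atria and 4 lower, against 22.5% of all genes in each direction. Their median difference was -0.08. Myelin basic protein (Mbp, 2.92), S100b (2.06), which adipocytes also express, and Egr2 (0.94) were the highest, while L1cam (-0.75) and Sox10 (-0.59) were lower in the atria. Their summed intensity was 1479 to 1618 in the atria and 1196 to 1292 in the ventricles, and overlapped without the 3 brightest genes, Pmp22, Scn7a and Mbp (317.6 to 393.3 in the atria and 308.9 to 343.3 in the ventricles). Of 13 mesothelial and epicardial markers, 11 were called higher in the atria and 1 lower, with a median difference of 2.26 and sums of 1570 to 2809 in the atria and 356.6 to 396.4 in the ventricles. Within the atria that sum was highest in pool 1 and lowest in pool 4, while Sncg was lowest in pool 1. Of 9 endothelial markers, 1 was called higher in the atria and 7 lower, with sums of 2847 to 2978 in the atria and 3944 to 4417 in the ventricles. The part of these cells in the Sncg difference was not tested.

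**Figure D3:**
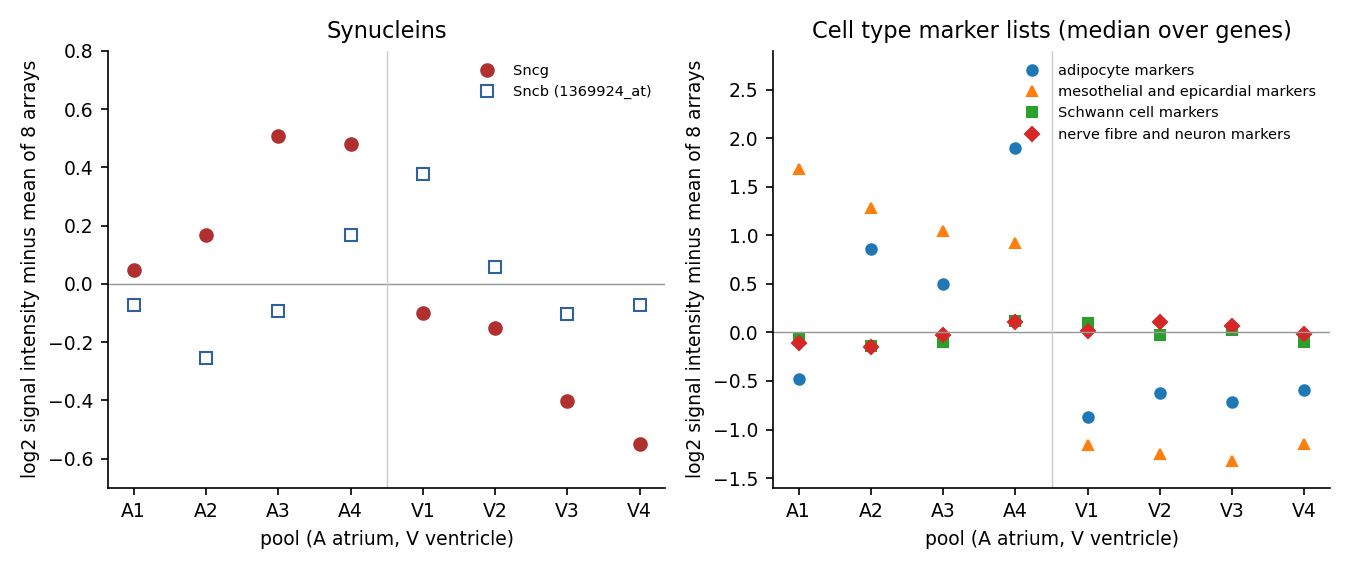
Deviation from the mean of the 8 arrays in log2 signal intensity (vertical axes) for each pool (horizontal axes, A atrium and V ventricle), for Sncg and Sncb on the left and for the median gene of 4 marker lists on the right. Sncg is above 0 in all atrial pools and below 0 in all ventricular pools, and the adipocyte median is also higher in every atrial pool (lowest in pool 1, -0.48, and highest in pool 4, 1.90) than in every ventricular pool (at most -0.59).

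The synucleins act at vesicle membranes, where membrane fusion is carried out by SNARE proteins and their helpers. Of 28 measured genes of vesicle fusion and synaptic vesicles, 5 were called higher in the atria and 4 lower, against 22.5% of all genes in each direction, with a median difference of -0.01. Those higher than the others were the vesicle GTPases Rab3b (0.59, limma adjusted p = 0.0012) and Rab3a (0.41, limma adjusted p = 0.0035) and the SNARE Snap23 (0.43, limma adjusted p = 4.3e-04). Rims1 (-0.73), Cplx2 (-0.39) and synaptophysin (Syp, -0.32), all of synaptic vesicle release, were the lowest, and the call of Syp was lost with cyclic loess normalization and without atrial pool 1 or 2 or ventricular pool 2 or 3. Both chamber means were under 4 for 11 of the 28 genes, Rims1 and Cplx2 among them. Vamp2, the vesicle SNARE of synapses, averaged 6.71 ± 0.09 in atrial pools and 6.56 ± 0.14 in ventricular pools (SD, n = 4 each) and did not pass the test (limma adjusted p = 0.18).

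A last list held enzymes and chaperones that phosphorylate synucleins, are inhibited by them in vitro, or handle synaptic and lysosomal protein turnover. Of 24 measured, 7 were called higher in the atria and 5 lower, against 22.5% of all genes in each direction. The median difference of the list was -0.04. Phospholipase D2 (Pld2), which synucleins inhibit in vitro, was lower, at 5.44 ± 0.08 in the atria and 5.97 ± 0.08 in the ventricles (SD, n = 4 each, limma adjusted p = 1.1e-04), while Pld1 was higher by 0.61 (limma adjusted p = 4.5e-05). Hspa4 (0.62) and the lysosomal protease Ctsl (0.51) were also higher, and the kinases Plk1 (-0.48) and Grk6 (-0.32) lower, where the call of Plk1 was lost without atrial pool 1, 2 or 3 or ventricular pool 3. The kinases Plk2 (-0.03, limma adjusted p = 0.86) and Grk5 (-0.09, limma adjusted p = 0.37) and the synaptic vesicle chaperone Dnajc5 (0.06, limma adjusted p = 0.39) did not pass the test. Of the further kinase genes listed, Csnk2a1 (0.36, limma adjusted p = 0.0014) and Csnk1a1 (0.22, limma adjusted p = 0.0091) were called higher. Plk3, which was dim (-0.23, limma adjusted p = 0.027), and Csnk2b (-0.18, limma adjusted p = 0.027) were called lower, and the rest were not called.

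**Figure D4:**
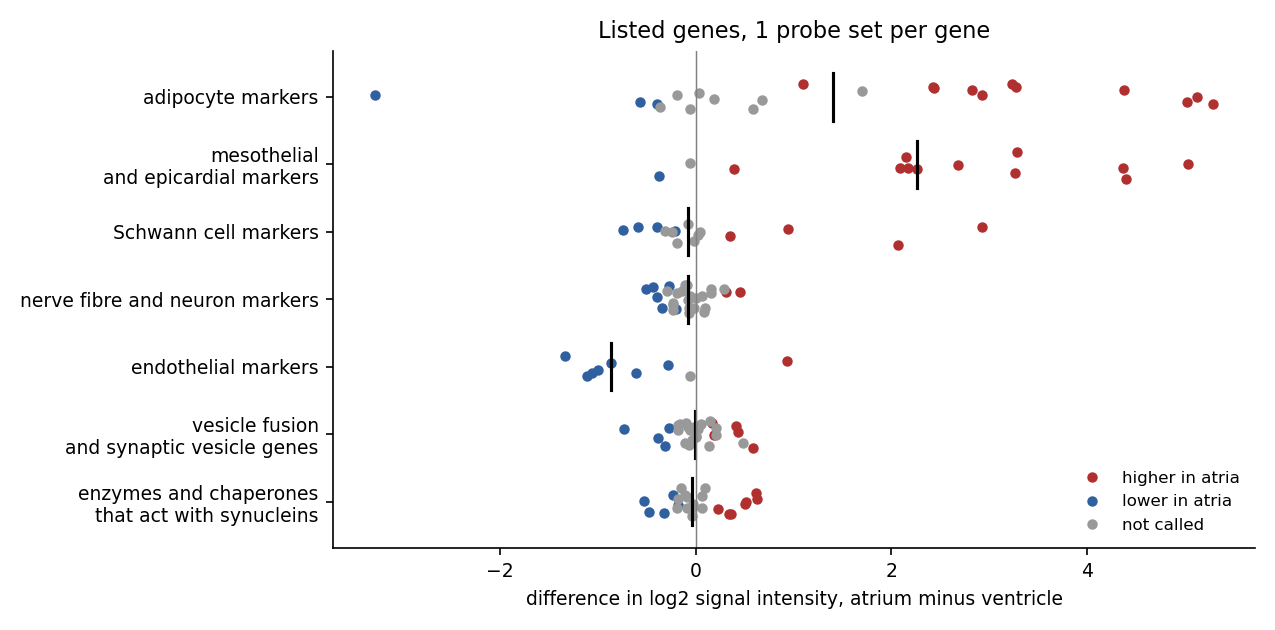
Difference in log2 signal intensity between atrium and ventricle (horizontal axis, atrium minus ventricle) for each measured gene of 7 lists (rows), with genes called higher in the atria in red, lower in blue and not called in grey, and a bar at the median of each list. The medians of the adipocyte (1.40) and mesothelial (2.26) lists lie to the right of 0, that of the endothelial list (-0.87) to the left, and those of the other 4 lists between -0.08 and -0.01.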

How the data were processed

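The authors hybridized 10 μg of total RNA per pool to Rat Genome 230 2.0 arrays, 8 in all, and deposited log2 signal intensities after RMA (background adjustment, quantile normalization and summarization; version not given in the sources used here). The values run from 1.9 to 13.77 and were used without further scaling. Symbols came from the platform annotation, where 20826 probe sets carry 1 gene, 436 several and 9780 none. Of those with 1 gene, 20758 were matched by gene ID to RefSeq (GRCr8) and took its current symbol. The number of arrays, 4 per chamber, limits the precision.

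Differences are the atrial mean minus the ventricular mean. For listed genes a linear model was fitted in limma 3.58.1 (R 4.3.3) to all 31042 probe sets and 8 arrays, with Benjamini-Hochberg adjustment over all of them, and each gene was read at its probe set with the highest mean. The methods used SAM, which rests on permuted labels and was not run. The procedure was tested on simulated data. The members and lists were chosen with earlier results of these data known. Named genes were all Sncb and Sncg probe sets, genes acting directly with synucleins, and the 5 most alike. Up to 3 genes with the largest called differences per direction and list were also picked. Some of these, such as those of the endothelial list, were examined singly but are not named. Hspa8, which acts directly with synucleins, had no probe set annotated to it alone. Th, Adipoq, the further kinase genes and the brightest genes of list sums were added after their values were seen. Other genes of the family are not reported here. Alternatives were centring, quantile and cyclic loess normalization, a replicate block, trended robust moderation, a filter on dim probe sets, another probe set per gene, and omission of each pool. Omission of atrial pools 1 and 4 together was added after the values had been seen.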

Additional observations from a re-analysis of the deposited data

Results flagged for a closer look

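A pool far from the other 3 of its chamber was looked for in the synuclein probe sets and the named genes, by the gap to the nearest pool relative to the range. No Sncb or Sncg value was apart by this measure. In 2 of 102 groups of 4 pools a value was: Sox10 in atrial pool 2 (4.54, with the nearest pool at 4.86) and Grk6 in ventricular pool 4 (8.31, with the nearest at 8.45). Chance gives about 1 in 20 groups.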

How the results depend on the processing

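Under 13 alternatives the Sncg difference lay between 0.52 and 0.69, and those of Sncb between -0.23 and -0.02 (1369924_at) and between -0.21 and -0.01 (1371568_at). None changed sign, but for Sncg omission of pools could not change it, since its chambers did not overlap. Leaving out 1 of 4 pools cannot move a difference by 1 SD between pools, and no other alternative did so. With the replicate number as a block the Sncg difference was 0.603, as without it. This is fixed by the design, since each number occurs once per chamber, and says nothing about pairing. The numbers are not stated to pair the pools: same-numbered pools had residual correlations from -0.188 to 0.155, and 2 of 4 atrial pools correlated best with the ventricular pool of the same number. Over all probe sets, 5789 were called higher and 6245 lower, and 5045 to 6356 and 4701 to 7200 over the alternatives.

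Nerve markers called higher (2) were 4 with quantile normalization, 4 with cyclic loess, 1 with the replicate block, 1 without the dimmest 40% and 1 to 2 with a pool left out (1 without atrial pool 2, ventricular pool 3 or ventricular pool 4). Those called lower (6) were 3 with quantile normalization, 3 with cyclic loess, 2 without the dimmest 40% and 4 to 10 with a pool left out (10 without atrial pool 4). Vesicle genes called higher (5) were 3 to 7 with a pool left out (7 without atrial pool 4 and 3 without atrial pool 1 or 3 or ventricular pool 1, 2 or 3), and those called lower (4) were 2 without the dimmest 40%. Enzymes and chaperones called lower (5) were 2 without atrial pool 2, atrial pool 3 or ventricular pool 3 and 3 without ventricular pool 1 or 4. Adipocyte markers called higher (11) were 8 with trended and robust moderation, 13 with another probe set per gene and 14 without atrial pool 1. Adipocyte markers called lower (3) were 6 without atrial pool 4 and 5 without atrial pools 1 and 4, and the 1 mesothelial marker lower was 0 without ventricular pool 3 or 4 (Wt1, limma adjusted p = 0.029 with all pools). The cause was not tested. Of 48 listed genes and chamber markers examined singly, 6 (Plk1, Prph, Syp, Ucp1, Vamp2 and Wt1) lost or gained a call under some alternative and none reversed.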
